A study of Mus musculus with 34 samples.

Results

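Genes of glucose metabolism, 10 in all, were followed across muscle of dystrophic and control mice, with and without L-arginine: the glucose transporter Slc2a4, the glycogen phosphorylase Pygm, the glycolytic enzymes Pfkm, Aldoa, Tpi1, Gapdh, Pgk1 and Eno3, the lactate dehydrogenase subunit Ldhb, and Pck1. They were chosen by function, as the genes of this pathway named by a probe with 1 gene symbol in both value tables. All 10 were found, among the 637 genes so named in both, and 13 probes of each table carried them. Pygm, Aldoa and Pck1 had 2 probes each and the other genes 1. All 10 genes passed the filter on missing values in both tables.

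Muscle takes up glucose through Slc2a4 (GLUT4), which insulin and contraction bring to the fibre surface, or frees it from glycogen through Pygm, the muscle glycogen phosphorylase. Pfkm, muscle phosphofructokinase, commits it to glycolysis, and Aldoa, Tpi1, Gapdh, Pgk1 and Eno3 carry the following steps towards pyruvate. Ldhb encodes the heart-type subunit of lactate dehydrogenase, abundant in oxidative muscle, while Pck1, the cytosolic phosphoenolpyruvate carboxykinase, serves gluconeogenesis in liver and kidney and glyceroneogenesis in fat.

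Total RNA of diaphragm and hindlimb muscle came from BL10 mice, the control strain, and from mdx mice, which lack dystrophin through a mutation of the X-linked Dmd gene. Both strains were sampled untreated (18 arrays) or after treatment with L-arginine, the substrate of nitric oxide synthases (16 arrays). Each of the 8 groups of tissue, strain and treatment had 1 array at 3, 5, 9 and 12 weeks of age, and the untreated mdx groups of diaphragm and of hindlimb had 2 at 12 weeks, numbered Sample 1 and Sample 2. The sources used here do not give dose, route, sex or the number of mice per RNA. Nothing says that arrays came from separate mice, so a p-value reflects only how these arrays vary, which may be technical.

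A value is the ratio of the 2 channels of an array. By the channel labels one channel held RNA of the strain at 12 weeks and the other RNA of the named age, so each gene is read against its own strain. What the strain comparisons below contrast are therefore ratios and not expression levels. The ratio was read as named age over 12-week RNA; the order of the channel labels makes this direction likely without settling it, and with the ratio turned every "higher" below becomes "lower". Arrays of different strains, which do not share a reference label, correlated as low as -0.41 (Pearson's r over probes, untreated table), and arrays of 1 strain no lower than -0.19. On the 12-week arrays both channels carry a 12-week label, and for treated mice it is not said whether the 12-week reference was treated. In treated BL10 hindlimb, the channel labels of the 9-week array both name mdx, and its title decided its group. Untreated arrays of BL10 diaphragm at 3 weeks and BL10 hindlimb at 3 and 12 weeks held 128 to 225 values at or below 0 among 1200 probes, and all other arrays at most 53. The files give ratios without signals, so the level of muscle markers on these arrays could not be checked; 15 of 24 muscle fibre markers had a value.

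Upstream sequences are shown for 3 of the genes on which the results below turn most: Pck1, whose ratios ranged widest; Ldhb, the only one to pass a test; and Pygm, which feeds glycogen into the pathway. They are the 250 bases before the annotated start of transcription, 5′ to 3′ on the gene's strand, from RefSeq with build GRCm38.p6: chr2:173152823-173153072 (plus strand) for Pck1, chr6:142507958-142508207 (minus strand) for Ldhb and chr19:6384158-6384407 (plus strand) for Pygm. Capitals mark every match, on either strand, to 3 short motifs. CANNTG is the E-box core bound by myogenic factors among others, and TGACG the core of the cAMP response element. The third motif, CTA and TAG with any 4 bases between them, is a loose form of the MEF2 site, where these 4 bases are A or T.
Pck1: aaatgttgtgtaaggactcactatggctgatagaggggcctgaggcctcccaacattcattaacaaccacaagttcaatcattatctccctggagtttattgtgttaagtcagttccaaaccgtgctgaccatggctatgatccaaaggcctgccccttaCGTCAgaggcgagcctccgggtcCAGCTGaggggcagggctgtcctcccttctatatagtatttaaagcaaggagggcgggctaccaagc
Ldhb: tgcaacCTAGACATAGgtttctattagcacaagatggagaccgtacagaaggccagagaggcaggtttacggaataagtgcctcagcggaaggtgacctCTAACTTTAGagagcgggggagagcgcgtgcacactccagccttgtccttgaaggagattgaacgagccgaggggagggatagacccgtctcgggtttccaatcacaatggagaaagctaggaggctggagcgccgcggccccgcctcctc
Pygm: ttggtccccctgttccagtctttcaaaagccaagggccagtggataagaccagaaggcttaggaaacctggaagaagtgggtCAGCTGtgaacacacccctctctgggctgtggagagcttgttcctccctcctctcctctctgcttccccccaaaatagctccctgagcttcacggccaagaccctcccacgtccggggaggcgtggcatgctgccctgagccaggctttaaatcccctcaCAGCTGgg

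The Pck1 stretch held CGTCA starting 90 bases before the start and CAGCTG 67 bases before it. Ldhb held CTAGACATAG at 244 and CTAACTTTAG at 151 bases before its start, and Pygm held CAGCTG at 168 and 8 bases before its own. Of 32851 RefSeq windows of 250 bases, 66.2% held CANNTG, 17.8% TGACG and 3.20% the MEF2 core, so the E-box core is common and the MEF2 core is not. These are matches of letters and not evidence of binding; 9 of the 10 genes had an entry, and Slc2a4 had none in the table used.

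Across all groups, most ratios of the 10 genes lay close to 1. In log2 units, where 0 is no difference between channels and 1 a doubling, Aldoa, Pgk1 and Eno3 stayed within 2-fold of the 12-week RNA on all 34 arrays, between -0.32 and 0.51 for Aldoa. Pck1 exceeded 2-fold in either direction on 9 arrays and Pfkm on 6. Group means of Pck1 ran from -0.88 in treated BL10 diaphragm to 1.09 in untreated mdx diaphragm, and those of Pfkm from -1.26 in treated mdx hindlimb to -0.01 in treated mdx diaphragm. The median SD within a group was 0.68 for Pck1 and 0.51 for Pfkm. The highest Pck1 mean and the lowest Pfkm mean stood farther than this from the next group. These next means were 0.10 for Pck1, in untreated BL10 diaphragm, and -0.56 for Pfkm, in untreated BL10 hindlimb. Otherwise neighbouring group means lay closer than this spread.

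**Figure D1:**
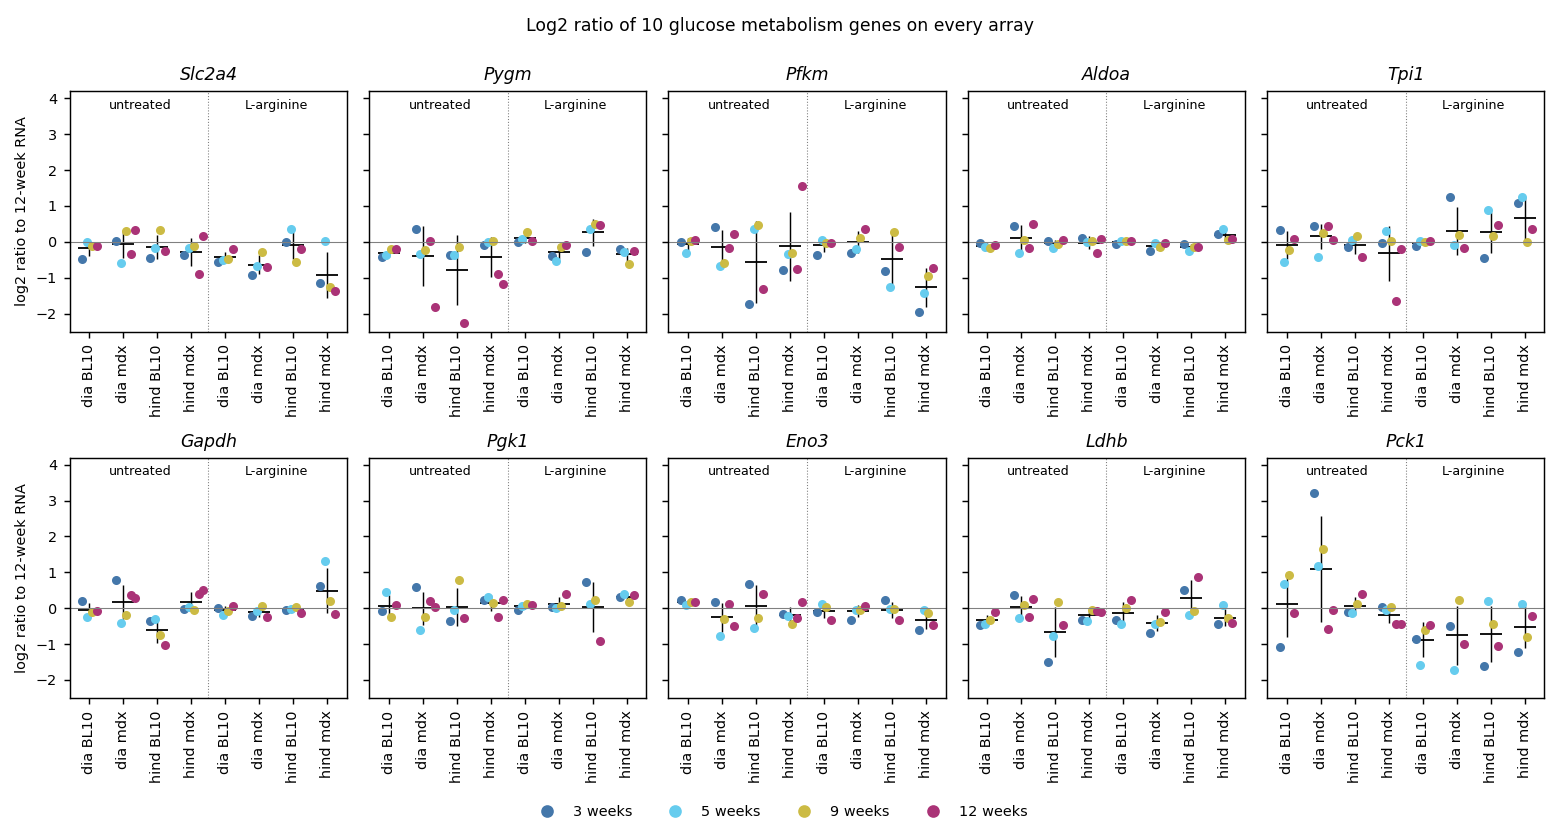
Each panel plots 1 gene, with its log2 ratio to the 12-week RNA on the vertical axis and the 8 groups along the horizontal axis (dia, diaphragm; hind, hindlimb). Points are single arrays coloured by age, horizontal bars the group mean and vertical bars 1 SD (n = 4, or 5 in untreated mdx groups); Pck1 reaches 3.20 in untreated mdx diaphragm at 3 weeks, and Pfkm and Slc2a4 lie lowest in treated mdx hindlimb.

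The comparison of strains asks whether these ratios differ in dystrophic muscle. In treated hindlimb, the transporter, the phosphorylase and the committing enzyme had lower ratios in mdx than in BL10, while Aldoa and Gapdh had higher ones, and none of these differences passed the test over all genes. The test here and below is limma's moderated test on log2 ratios of every named gene, with group and age as terms; a gene is called when its Benjamini-Hochberg adjusted p lies under 0.05. In this comparison 0.158% of the 633 genes tested were called and 0 of the 10 genes described here. Without adjustment, 18.8% of all genes and 6 of the 10 had a p under 0.05: Slc2a4, Pygm, Pfkm, Aldoa, Gapdh and Ldhb. The median difference was -0.04 over the 10 genes and 0.13 over all genes.

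Slc2a4 in treated BL10 hindlimb had deposited ratios of 1, 1.28, 0.68 and 0.87 at 3, 5, 9 and 12 weeks. In treated mdx hindlimb they were 0.45, 1.01, 0.42 and 0.39. The mdx array was the lower one at each of the 4 ages. On 3 of 4 mdx arrays the ratio was 0.45 or less. The lowest, 0.39, came from the 12-week array, where both channels carry a 12-week label. The 5-week mdx array stood near 1 and made the groups overlap. The mean log2 ratio was -0.94 ± 0.64 in mdx against -0.10 ± 0.38 in BL10 (SD, n = 4 each), a fitted difference of -0.84 ± 0.27 (SE) that did not pass (limma, adjusted p = 0.131).

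For Pygm, the log2 ratios averaged over its probes were -0.28, 0.36, 0.50 and 0.48 in treated BL10 hindlimb at 3, 5, 9 and 12 weeks. In treated mdx hindlimb they were -0.21, -0.29, -0.63 and -0.26. At 3 weeks the strains differed by 0.07; from 5 weeks on the BL10 arrays lay above 0 and the mdx arrays below. The fitted difference was -0.61 ± 0.19 (SE; limma, adjusted p = 0.127).

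Pfkm had deposited ratios of 0.57, 0.42, 1.22 and 0.91 in treated BL10 hindlimb at 3, 5, 9 and 12 weeks. In treated mdx hindlimb the ratios were 0.26, 0.37, 0.52 and 0.6. All 4 mdx ratios lay below 1, also that of the 12-week array, where both channels carry a 12-week label. The mdx ratio was the lower one at each age, although the younger BL10 arrays reached into the mdx range. With a difference of -0.79 ± 0.23 (SE), Pfkm had the smallest p of the 10 genes in this comparison (unadjusted p = 0.00578, limma, adjusted p = 0.114); without the BL10 array at 5 weeks the difference was -1.02 and was called (adjusted p = 0.0473). After removal of the trend along the table's probe order, Slc2a4 (adjusted p = 0.0102) and Pygm (adjusted p = 0.0415) were called and Pfkm was not. The statistics of Slc2a4 and Pygm were added after their values were seen.

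Among the later enzymes Aldoa and Gapdh had higher ratios in treated mdx hindlimb, and Eno3 and Ldhb lower ones. Aldoa, fructose-bisphosphate aldolase, had log2 ratios, averaged over its probes, of -0.05, -0.25, -0.14 and -0.15 in BL10 at 3, 5, 9 and 12 weeks. In mdx they were 0.23, 0.36, 0.05 and 0.08. On this average all 4 mdx arrays lay above 0 and all 4 BL10 arrays below it, with a gap that is small beside the changes of Slc2a4 and Pfkm. Each probe was higher in mdx at each age, but neither alone split the strains at a ratio of 1. The first had 1.03 both in BL10 at 3 weeks and in mdx at 5 weeks. The second had 0.97 and 0.92 in mdx at 9 and 12 weeks. On the average, Aldoa was the only one of the 10 genes whose groups did not overlap, against 6.24% of all genes. The difference was 0.33 ± 0.13 (SE).

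Gapdh, glyceraldehyde-3-phosphate dehydrogenase, had deposited ratios of 0.97, 0.99, 1.03 and 0.91 in treated BL10 hindlimb, and 1.53, 2.48, 1.14 and 0.9 in treated mdx hindlimb at the same ages. The mdx excess stood at 3 and 5 weeks and was absent at 12 weeks. Tpi1, triosephosphate isomerase, had ratios of 2.12 and 2.36 in mdx at 3 and 5 weeks and of 1 and 1.27 at 9 and 12 weeks. In BL10 they were 0.73, 1.86, 1.12 and 1.39, so the Tpi1 strains overlapped. Eno3, the muscle enolase, was lower in mdx at 4 of 4 ages, with log2 differences of -0.84 to -0.04. Ldhb had deposited ratios of 1.43, 0.88, 0.95 and 1.84 in treated BL10 hindlimb and 0.73, 1.06, 0.83 and 0.75 in treated mdx hindlimb, at 3, 5, 9 and 12 weeks. The mdx array was the lower one at 3 of 4 ages, the groups overlapped, and the difference of -0.55 ± 0.23 (SE) was close in size to that of Pygm. Pgk1, phosphoglycerate kinase, had no common direction: its BL10 ratios were 1.67, 1.08, 1.16 and 0.53 and its mdx ratios 1.24, 1.32, 1.12 and 1.28. In all, 4 of the 10 genes (Slc2a4, Pfkm, Aldoa, Eno3) differed in the same direction at all 4 ages, and 25.3% of all genes did.

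**Figure D2:**
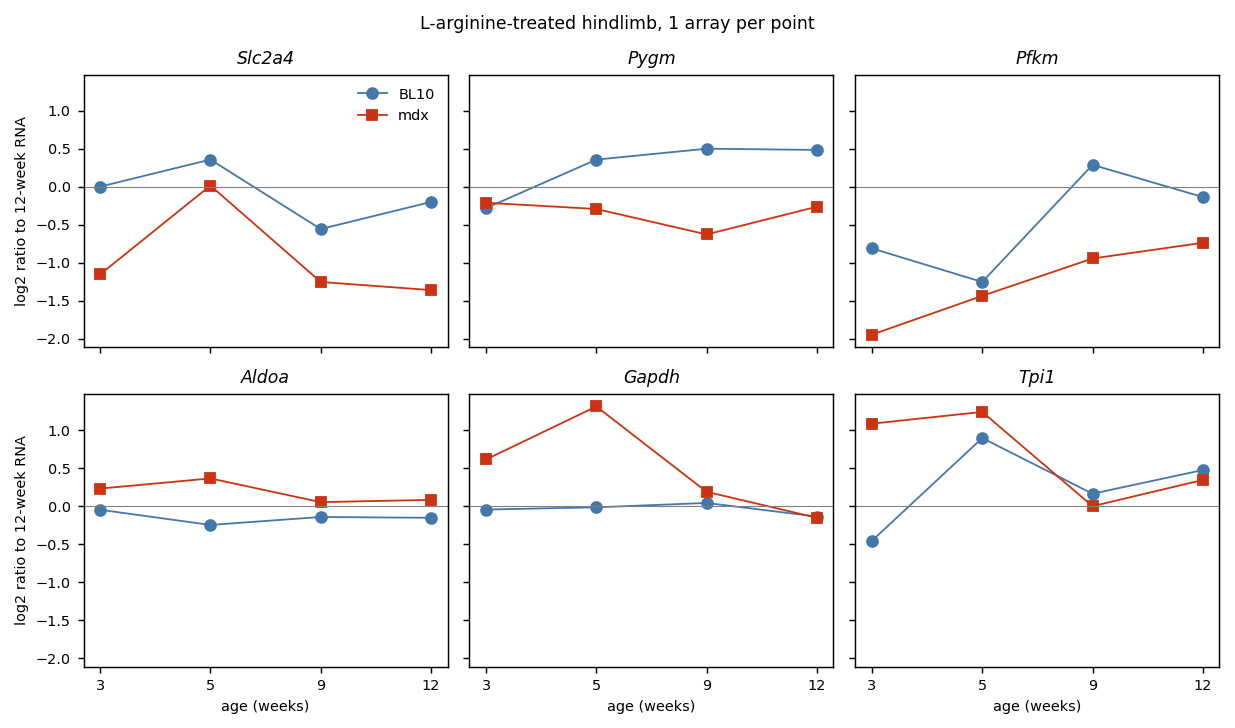
Log2 ratio to the 12-week RNA (vertical axis) against age in weeks (horizontal axis) in L-arginine-treated hindlimb, for 6 genes; each point is 1 array, circles BL10 and squares mdx, joined only to guide the eye. The mdx line lies below BL10 at all 4 ages for Slc2a4 and Pfkm and above it for Aldoa, while Gapdh and Tpi1 are highest in mdx at 5 weeks.

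Markers of other cells moved with this contrast. All 4 measured macrophage markers of 12 listed had higher ratios in treated mdx hindlimb, and Lyz2 was called (1.97 ± 0.28, SE; limma, adjusted p = 0.00823). Their mean log2 ratio per array was 0.99 to 1.32 in mdx and -0.39 to 0.36 in BL10. The 5 measured fibroblast and matrix genes of 12 ran from 1.11 to 1.86 in mdx and 0.25 to 1.20 in BL10; all 5 had a positive difference and none was called, Lox having the smallest p (adjusted p = 0.0572). The mean of the muscle fibre markers (15 of 24) ran from 0.14 to 0.35 in mdx and from -0.13 to 0.19 in BL10. Single markers went both ways: 11 of 15 differences were above 0, from -0.43 to 1.99 with a median of 0.22. Of the 8 measured fast fibre markers 5 were above 0, with a median of 0.10. The part of other cells in the values of Slc2a4, Pygm, Pfkm and Ldhb was not tested, and in these bulk samples fewer cells of a type and less RNA per cell cannot be told apart.

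In untreated hindlimb Gapdh had the smallest p of the set. It had deposited ratios of 0.78, 0.81, 0.59 and 0.49 in BL10 at 3, 5, 9 and 12 weeks. In mdx they were 0.99, 1.03 and 0.97 at 3, 5 and 9 weeks and 1.32 and 1.43 on the 12-week arrays. Every BL10 array thus lay below every mdx array; the widest gap was at 12 weeks, where the labels give the same age to both channels. Group means were -0.61 ± 0.34 (SD, n = 4) and 0.18 ± 0.26 (SD, n = 5) on the log2 scale. The difference of 0.78 ± 0.24 (SE) had an unadjusted p of 0.00611 and did not pass (limma, adjusted p = 0.354). The BL10 values of 3 weeks and of 12 weeks, the latter the lowest, came from arrays with over 100 values at or below 0. Without such arrays, a setting chosen after seeing the data, the difference was 0.44 ± 0.30 (SE), without all 12-week arrays 0.47 ± 0.28 and with the probe-order trend removed 0.40 ± 0.23. In this comparison 0.157% of genes and 0 of the 10 were called, 12.4% and 1 of 10 had an unadjusted p under 0.05, and groups did not overlap for 3.47% of genes and for Gapdh alone of the 10.

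The transporter and the early enzymes overlapped between strains in untreated hindlimb. Slc2a4 had deposited ratios of 0.73, 0.88, 1.25 and 0.83 in untreated BL10, and 0.78, 0.88, 0.93, 0.54 and 1.12 in untreated mdx, and the groups overlapped. Pfkm ran from 0.3 to 1.38 in BL10, with both low values on arrays that held many values at or below 0 (0.3 at 3 weeks, 0.4 at 12 weeks). In mdx Pfkm stood between 0.58 and 0.81 on 4 arrays and at 2.94 on Sample 2, although both channels of that array are labelled 12 weeks. Averaged over its probes, Pygm was higher in mdx at 4 of 4 ages, with a difference of 0.49 ± 0.37 (SE) beside a median of all genes of 0.16. Of the alternatives, 1 of 31 brought this difference to -0.01. Neither probe alone kept the direction. The first had ratios of 1.79, 1.12 and 1.03 in BL10 at 3, 5 and 9 weeks, against 0.91, 0.85 and 0.89 in mdx. The second had 0.63 in BL10 at 12 weeks, against 0.6 and 0.15 in mdx. Pygm and Gapdh were the 2 of 10 genes with a common direction at all ages, against 20.8% of all genes. Muscle fibre markers ran lower in untreated BL10 hindlimb, -1.13 to -0.01, than in mdx, -0.16 to 0.13; their part in the Gapdh values was not tested.

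In untreated diaphragm Pck1 reached the highest ratios of the 10 genes. In mdx diaphragm its probes gave deposited ratios of 20.54 and 4.11 at 3 weeks, 1.72 and 2.99 at 5 weeks and 6.64 and 1.51 at 9 weeks. At 12 weeks they gave 0.77 and 0.59 on Sample 1 and 1.12 and 0.84 on Sample 2. Both probes thus put Pck1 above the 12-week level at all 3 younger ages, and neither repeated the size shown by the other. In BL10 diaphragm the pairs were 1.51 and 0.15 at 3 weeks, 1.21 and 2.14 at 5 weeks, 2.21 and 1.61 at 9 weeks and 0.95 and 0.89 at 12 weeks. BL10 was therefore also above 1 at 5 and 9 weeks on both probes, and the probes opposed each other at 3 weeks.

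Averaged over probes, Pck1 had a mean log2 ratio of 1.09 ± 1.49 in mdx (SD, n = 5) and 0.10 ± 0.90 in BL10 (SD, n = 4). The difference of 1.11 ± 0.54 (SE) was the smallest p of the 10 genes in this comparison (unadjusted p = 0.0588) and did not pass (limma, adjusted p = 0.494). Its size varied with single arrays and settings: it was 0.45 without the mdx array of 3 weeks, 0.53 without the BL10 array of 3 weeks and 1.84 without the 12-week arrays, and 0.43 to 0.59 with quantile normalisation, array scaling, array weights or without the arrays holding over 100 values at or below 0. Here 0% of genes were called, 0 of the 10 among them; 9.89% of all genes and 0 of the 10 had an unadjusted p under 0.05. Pck1 is also a gene of liver and fat. The 5 measured liver genes of 9 listed had array means of -0.97 to 0.84 in mdx and 0.09 to 0.54 in BL10 diaphragm, and the 2 measured adipocyte genes of 10, Scd1 and Lpl, -0.39 to 0.46 and -0.66 to -0.06. Their part in the Pck1 ratios was not tested.

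**Figure D3:**
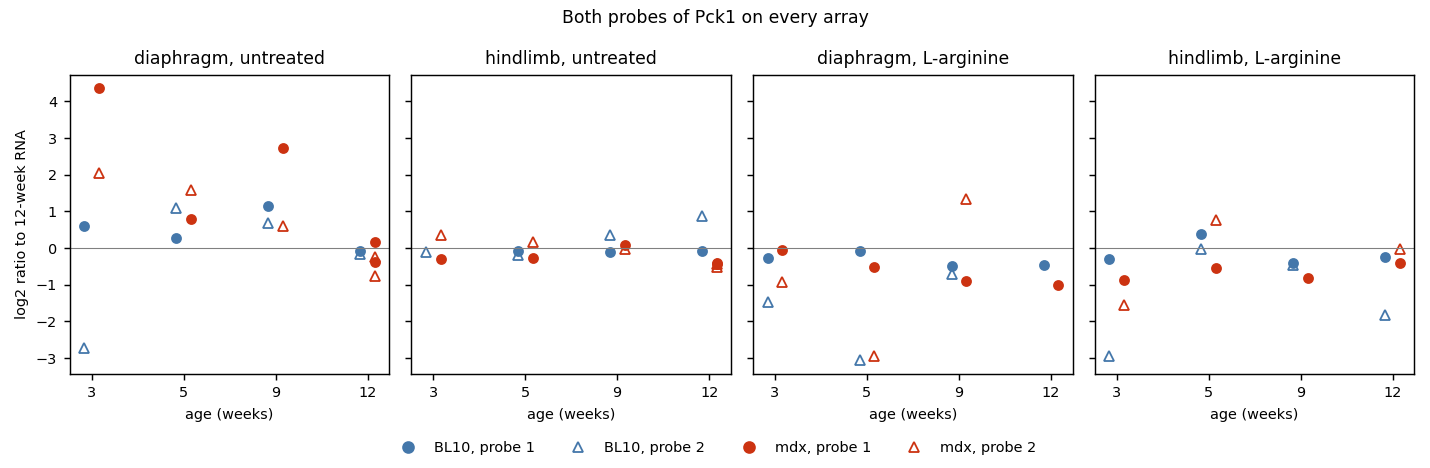
Both Pck1 probes on every array: log2 ratio to the 12-week RNA (vertical axis) against age in weeks (horizontal axis) for diaphragm and hindlimb, untreated and L-arginine-treated; circles are the first and triangles the second probe in the order of each table, blue BL10 and red mdx, and values at or below 0 are left out. The high values of 3, 5 and 9 weeks in untreated mdx diaphragm have no counterpart in untreated hindlimb, and the 2 probes often lie far apart in treated muscle.

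In untreated diaphragm all of the 10 genes, or all but 1, had ratios on the same side of 1 on 2 arrays. In mdx at 3 weeks all 10 genes had a log2 ratio above 0, with a median of 0.43, while 54.2% of all genes did. At 5 weeks 1 of 10, Pck1, was above 0 and the median was -0.42, with 60.1% of all genes above 0. Gapdh, for example, went from a ratio of 1.72 to 0.75 and Pgk1 from 1.51 to 0.66 between these arrays. Arrays of other groups were as one-sided. In treated mdx diaphragm at 5 weeks 0 of 10 were above 0 (50.7% of all genes). In treated BL10 diaphragm at 3 weeks it was 1 of 10 (53.3%), and on Sample 1 of untreated mdx hindlimb 1 of 10 (47.3%). With 1 array per age, age cannot be told apart from the array. Between strains, Eno3 was lower in mdx at 4 of 4 ages (mean log2 ratio -0.26 ± 0.41, SD, n = 5, against 0.17 ± 0.06, SD, n = 4), and Ldhb and Tpi1 were higher at 4 of 4. Such a common direction was found in 3 of the 10 genes and in 17.1% of all genes. Groups did not overlap for 0 of the 10 genes and for 3.46% of all genes.

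In treated diaphragm Pygm had the smallest p of the 10 genes. Averaged over its probes, it had log2 ratios of 0.01, 0.08, 0.26 and 0.03 in BL10 and -0.39, -0.52, -0.14 and -0.08 in mdx, at 3, 5, 9 and 12 weeks. On this average all mdx arrays lay below all BL10 arrays, and 5.66% of all genes had groups that did not overlap. The strains overlapped on each single probe. The first had a ratio of 1 in BL10 at 3 weeks and 1.08 in mdx at 12 weeks. The second had 0.78 in BL10 and 0.83 in mdx at 12 weeks. The difference of -0.38 ± 0.19 (SE) did not pass (unadjusted p = 0.0690, limma, adjusted p = 0.998). Pygm and Aldoa, averaged over their probes, and Ldhb were lower in mdx at 4 of 4 ages, with log2 differences of -0.40 to -0.02 for Ldhb. Of all genes 16.1% had a common direction. Of all genes 0.158% were called and 3.16% had an unadjusted p under 0.05; of the 10 genes, 0 and 0. Markers of other cells moved with this contrast too. Mean log2 ratios of the 4 macrophage markers were 0.75 to 1.04 per mdx array and 0.02 to 0.57 per BL10 array, and those of the 5 fibroblast and matrix genes 0.55 to 1.19 and -0.24 to 0.53. Positive differences were found for 4 of 4 and 4 of 5, none of them called; their part in the Pygm values was not tested.

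**Figure D4:**
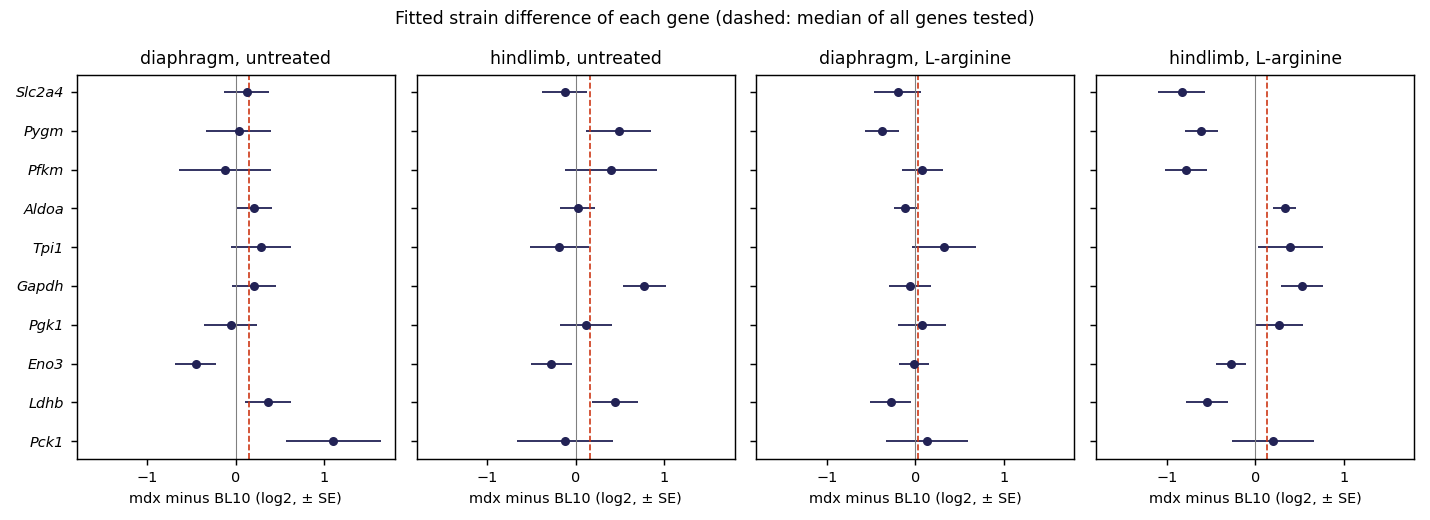
Fitted strain difference (mdx minus BL10, log2, horizontal axis) of each gene (vertical axis) in 4 panels of tissue and treatment; points are estimates, bars 1 SE, and the dashed red line the median of all genes tested. No gene was called; in treated hindlimb Slc2a4, Pygm and Pfkm lie at -0.84, -0.61 and -0.79 and Gapdh at 0.53, and in untreated hindlimb Gapdh lies at 0.78.

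Whether a strain difference was itself different in hindlimb and diaphragm was tested as an interaction. In the treated table the Pfkm difference of hindlimb minus that of diaphragm was -0.87 ± 0.33 (SE; -0.79 against 0.08), with an unadjusted p of 0.0228 and limma's adjusted p of 0.695. Aldoa was the other gene with an unadjusted p under 0.05. In the untreated table Gapdh had the smallest p of the 10 (0.57 ± 0.34, SE; limma, adjusted p = 0.774). In both interactions 0% of genes and 0 of the 10 were called; 6.79% of all genes (treated) and 4.71% (untreated), and 2 and 0 of the 10, had an unadjusted p under 0.05. So the hindlimb values of Slc2a4, Pygm and Pfkm were not shown to be particular to hindlimb.

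Ages were compared with 12 weeks over the groups of each table, and in each of these 6 comparisons 0% of genes and 0 of the 10 were called. In untreated muscle Pygm had the smallest p of the 10 genes at every age, with differences from 12 weeks of 0.96 ± 0.36 at 3 weeks, 0.81 ± 0.36 at 5 weeks and 0.95 ± 0.36 at 9 weeks (SE; limma, adjusted p = 0.532, 0.905 and 0.914). The low side of these lay on the 12-week arrays, where Pygm stood at -2.25 in BL10 hindlimb, -0.88 and -1.18 in mdx hindlimb, 0.02 and -1.82 in mdx diaphragm and -0.20 in BL10 diaphragm. The BL10 hindlimb value came from a probe at a ratio of 0.07, beside 0.63 for the other probe. In treated muscle Pfkm had the smallest p at 3 and 5 weeks, with differences from 12 weeks of -0.72 ± 0.23 and -0.57 ± 0.23 (SE; limma, adjusted p = 0.570 and 0.591). At 9 weeks Ldhb had the smallest p (-0.33 ± 0.23, SE; limma, adjusted p = 0.992). An unadjusted p under 0.05 was found for 1 of the 10 genes in every age comparison but the last, which had 0, and for 3.30% to 8.01% of all genes.

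The 12-week arrays also give the spread where the labels name no difference of age between channels. On the untreated ones the 10 genes had a median absolute log2 ratio of 0.27 over 60 values, of which 7 exceeded 2-fold; at 3, 5 and 9 weeks the median was 0.29. In treated muscle the medians were 0.24 at 12 weeks and 0.22 at the younger ages. The medians were thus close at younger ages and at 12 weeks; values past 2-fold numbered 6 of 120 at the younger ages in untreated muscle, and in treated muscle 13 of 120 at the younger ages and 2 of 40 at 12 weeks.

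Treated and untreated muscle were compared last, with a limit on every value: all treated arrays lie in one value table and all untreated arrays in the other, and the effect of treatment cannot be told apart from that of the table. These comparisons use the same arrays as those between strains. The 1 call among the 10 genes in all 16 comparisons arose here, for Ldhb in BL10 hindlimb. Its deposited ratios were 0.35, 0.58, 1.12 and 0.72 in untreated BL10 hindlimb at 3, 5, 9 and 12 weeks. In treated BL10 hindlimb they were 1.43, 0.88, 0.95 and 1.84. The treated array was the higher one at 3, 5 and 12 weeks and the lower one at 9 weeks, and the groups overlapped.

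On the log2 scale Ldhb averaged 0.28 ± 0.50 in treated and -0.65 ± 0.70 in untreated BL10 hindlimb (SD, n = 4 each), and the difference of 0.94 ± 0.25 (SE) was called (limma, adjusted p = 0.0282). In this comparison 4.27% of genes were called and 1 of the 10, and the median of all genes was itself 0.24. The call was lost when arrays were centred (0.72, limma, adjusted p = 0.112) or scaled (0.55, adjusted p = 0.234). It was also lost without the untreated array of 3 weeks (0.67, adjusted p = 0.171) or of 12 weeks (0.94, adjusted p = 0.0718), both of which held many values at or below 0, and without the treated array of 3 weeks (0.79, adjusted p = 0.0931) or of 12 weeks (0.78, adjusted p = 0.117). Muscle fibre markers moved the same way: their mean per array was -1.13 to -0.01 in untreated and -0.13 to 0.19 in treated BL10 hindlimb, and 3 of 15, Mylpf, Tnni2 and Tpm3, were called higher. Of the 5 fibroblast and matrix genes 4 had a positive difference, with a median of 1.00, and Fmod was called higher; their mean per array was -0.29 to 0.14 in untreated and 0.25 to 1.20 in treated muscle. Of the 4 macrophage markers 2 had a positive difference, with a median of -0.20. The part of the fibre, fibroblast and macrophage lists in the Ldhb call was not tested.

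Pygm in the same muscle had a difference of 1.05 ± 0.36 (SE), at an adjusted p of 0.0814 (limma). It was called without the untreated array of 9 weeks or the treated array of 3 weeks. Over 47 alternatives the Pygm difference ran from 0.49 to 1.29, with limma's adjusted p from 0.0463 to 0.742. The untreated 12-week array stood at -2.25, from probes at ratios of 0.07 and 0.63, against -0.38 to -0.15 on the other untreated arrays. It also held many values at or below 0. Gapdh groups did not overlap, with all 4 treated arrays between 0.91 and 1.03 and all 4 untreated arrays between 0.49 and 0.81, against 8.36% of all genes. In BL10 diaphragm 0% of genes and 0 of the 10 were called, and 7.75% and 0 had an unadjusted p under 0.05. Averaged over probes, Pygm groups there did not overlap, and neither did those of 10.8% of all genes. The untreated log2 ratios were -0.44, -0.38, -0.20 and -0.20 and the treated ones 0.01 to 0.26. Single probes are not paired between the tables. In the order of each table, the first probe had means of -0.44 untreated and 0.36 treated. The second had -0.16 in both and overlapped, with ratios of 0.94 untreated at 5 weeks and 0.78 treated at 12 weeks.

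In mdx diaphragm Pck1 was again the gene with the smallest p. Averaged over probes, its treated log2 ratios were -0.49, -1.73, 0.22 and -1 at 3, 5, 9 and 12 weeks. The untreated ones were 3.20, 1.18 and 1.66 at 3, 5 and 9 weeks and -0.57 and -0.04 at 12 weeks. Among the treated arrays the second probe had a value on 3 of 4, with a mean of -0.84 ± 2.14 (SD). The first had a mean of -0.62 ± 0.43 (SD) over 4. On the average of probes the treated array lay lower at each age. The groups overlapped through the untreated 12-week arrays, which lay below the treated array of 9 weeks and, for Sample 1, also below that of 3 weeks. The difference of -1.90 ± 0.52 (SE) did not pass (unadjusted p = 0.00100, limma, adjusted p = 0.106), where 0.633% of genes and 0 of the 10 were called. It passed without Sample 1 of untreated mdx diaphragm (-2.25, adjusted p = 0.0151) and without the 12-week arrays (-2.68, adjusted p = 0.0238). In BL10 diaphragm Pck1 differed by -0.98 ± 0.54 (SE; limma, adjusted p = 0.663). Groups did not overlap for 4.88% of all genes in mdx diaphragm and for 0 of the 10.

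Liver genes were lower in the same contrast. In mdx diaphragm all 5 measured of 9 had a negative difference, with a median of -0.91 and array means of -1.57 to 0.10 in treated against -0.97 to 0.84 in untreated muscle, and Selenbp1 was called lower (-2.94 ± 0.63, SE; limma, adjusted p = 0.0193). In BL10 diaphragm all 5 liver genes also had a negative difference, with a median of -1.24. In hindlimb Pck1 differed by -0.42 ± 0.52 in mdx and by -0.79 ± 0.54 in BL10 (SE), neither called. The liver genes had medians of -0.03 in mdx hindlimb and 0.17 in BL10 hindlimb, with 2 and 3 of 5 differences above 0. Scd1 and Lpl, the measured adipocyte genes, ran from -0.57 to -0.03 in treated and from -0.39 to 0.46 in untreated mdx diaphragm. The part of either tissue in the Pck1 differences was not tested.

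In mdx hindlimb 3.01% of genes and 0 of the 10 were called; 18.7% of all genes and 3 of the 10 (Slc2a4, Pfkm, Tpi1) had an unadjusted p under 0.05. Tpi1 had the smallest, with a difference of 0.94 ± 0.34 (SE; limma, adjusted p = 0.124). Its untreated deposited ratios were 0.97, 1.23, 1.02, 0.32 and 0.87, so a part of the difference lay in Sample 1 at 12 weeks (0.32). Pfkm differed by -1.09 ± 0.41 and Slc2a4 by -0.67 ± 0.26 (SE), and Slc2a4 was called after removal of the probe-order trend and with weighted arrays. Untreated Pfkm stood at a log2 ratio of 1.56 on Sample 2 at 12 weeks, against -0.79 to -0.30 on the other untreated arrays. Over 47 alternatives the Pfkm difference ran from -1.30 to -0.65. Groups did not overlap for 10.2% of all genes and for 0 of the 10. All 5 measured fibroblast and matrix genes had a positive difference in mdx hindlimb, with a median of 1.22, and Col1a2 and Fmod were called higher; their mean per array was 1.11 to 1.86 in treated and 0.02 to 0.67 in untreated muscle. All 4 macrophage markers had a positive difference, with a median of 0.83 and none called. The part of these cells in the Tpi1, Pfkm and Slc2a4 differences was not tested. Scaling moved the median of all genes in several comparisons: in mdx hindlimb from 0.22 to 0.04 with centred arrays, in BL10 hindlimb from 0.24 to 0.03 and in the strain comparison of treated hindlimb from 0.13 to 0.02. The lower ratios of Slc2a4, Pygm and Pfkm and the higher ones of Aldoa and Gapdh in treated mdx hindlimb kept their sign under centring, scaling, quantile normalisation and trend removal, but not their size. Aldoa went from 0.33 to between 0.17 and 0.22, and Gapdh from 0.53 to between 0.30 and 0.42, with unadjusted p-values over 0.05 in all 4 settings. Pfkm went from -0.79 to -0.54 with scaled arrays and to -0.47 with the trend removed, and Slc2a4 from -0.84 to -1.30 with quantile normalisation.

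Of 69 other genes of glucose metabolism listed for comparison, from hexokinases to lactate transporters, 2 were measured: Pdhb, a subunit of pyruvate dehydrogenase, and Akt2, an insulin signalling kinase. Neither was called in any of the 16 comparisons. The smallest p of Pdhb was in untreated hindlimb, where mdx was higher by 1.10 ± 0.36 (SE; limma, adjusted p = 0.362). For Akt2 it was 0.66 ± 0.25 higher in treated than untreated BL10 diaphragm (SE; limma, adjusted p = 0.447). Hexokinase, pyruvate kinase, Ldha and glycogen synthase were not analysed here, so the 10 genes cover neither the entry nor the end of glycolysis.

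For the 2 genes with the widest range of group means, Pck1 and Pfkm, the genes most like them were sought by the median absolute difference in log2 ratio over shared arrays. For Pfkm in treated muscle this was Ndrg2 (0.10 over 16 arrays), then Gsn (0.17) and Mrpl49 (0.22), against a median of 0.55 over 632 genes. In untreated muscle it was Nfe2l1 (0.22 over 16 arrays), Gsn (0.23) and Oxct1 (0.24), so Gsn, which encodes gelsolin, was listed in both tables. For Pck1 they were Bcas3 (0.14), Smim13 (0.16) and Septin7 (0.19) in untreated muscle, over 18 arrays each. In treated muscle they were Oplah (0.35 over 15 arrays), Erbin (0.37) and Slc2a4 (0.37 over 16 arrays), itself one of the 10. These are likenesses among few arrays of both strains, and arrays of different strains do not share a reference label.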

How the data were processed

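Values came from 34 2-colour arrays in 2 deposited value tables of 1200 probes (18 untreated, 16 L-arginine arrays). The deposited values were read as linear ratios of the channels, from column medians near 1; scanner, dyes, background correction, scale, centring and direction: not given in the sources used here. Probes were named by the platform annotation: 812 had 1 symbol, 99 several and 289 were not listed. Ratios were turned into log2 and averaged per gene; values at or below 0 became missing, and genes needed a value on 75% of arrays. No further normalisation was made. Tests used limma 3.58.1 in R 4.3.3 (lmFit, eBayes, group and age as factors, Benjamini-Hochberg at 0.05) over 637, 633 or, for treated against untreated, 632 genes, and were tested on simulated data. Groups follow the labels. Statistics are given for genes that passed and otherwise for the smallest p; others were added after values were seen. Alternatives covered scaling, filters, the age term, 12-week arrays, array weights and each array left out. The number of arrays limits precision. Members and lists were chosen with earlier results of these data known. Figures used Python 3.11.15 and matplotlib 3.10.9.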

Additional observations from a re-analysis of the deposited data

Results flagged for a closer look

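Among 80 combinations of gene and group, 9 held an array far from the rest, by Dixon's ratio of gap to range; chance alone gives about 1 in 20. In treated hindlimb of mdx, Slc2a4 stood at a log2 ratio of 0.014 at 5 weeks, while the other arrays lay between -1.36 and -1.15. In untreated BL10 hindlimb, Pygm stood at -2.25 at 12 weeks, against -0.38 to -0.15 on the others.

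Untreated mdx hindlimb held 4 such values, all on 12-week arrays: Pfkm at 1.56 on Sample 2, and Aldoa at -0.32, Tpi1 at -1.64 and Pgk1 at -0.25 on Sample 1. Pfkm lay between -0.79 and -0.30 on the other arrays of that group. The labels give 12-week RNA to both channels of these arrays.

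In diaphragm, Pfkm stood at -0.32 in untreated BL10 at 5 weeks, Aldoa at -0.067 in treated BL10 at 3 weeks and Pgk1 at 0.40 in treated mdx at 12 weeks. The Aldoa value is far from the others only because these lie between 0.012 and 0.020.

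The strain difference of Aldoa in treated muscle was larger in hindlimb than in diaphragm by 0.44 on the log2 scale (0.33 against -0.11; interaction in limma, unadjusted p = 0.0367, adjusted p = 0.695), so it was singled out before adjustment and did not pass after it.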

How the results depend on the processing

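In 11 of the 16 comparisons the count of called genes among the 10 was 0 under all alternatives run. None of the 16 differences that had the smallest p of the 10 genes in their comparison changed sign under any alternative run; of all 160 differences of the 10 genes, 77 had another sign in at least 1 alternative. For treated against untreated BL10 hindlimb (1 called) the count was 0 with array centring, array scaling, quantile normalisation, the probe-order trend removed, the 12-week arrays left out, array weights, and without arrays holding over 100 values at or below 0, a setting chosen after seeing the data. Ldhb kept its call in 36 of 47 alternatives, with adjusted p from 0.00299 to 0.637. In treated hindlimb, strain counts became 2 with the trend removed. For treated against untreated muscle the count was 1 in mdx hindlimb with the trend removed and with array weights, 1 in mdx diaphragm with array scaling, without 12-week arrays and with array weights, and 1 in BL10 diaphragm with array weights. Leaving out single arrays gave 0 to 2 calls in BL10 hindlimb, 0 to 1 in mdx diaphragm and 0 to 1 between strains of treated hindlimb. Single probes were not tested between tables, where they are not paired. No paired analysis was possible because the labels number only Sample 1 and Sample 2. Signal over background is unknown here.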

Other observations

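The paired probes of Pck1, Pygm and Aldoa give a view of the measurement itself. Both Pck1 probes lay on the same side of 1 on 10 of 17 untreated and 10 of 13 treated arrays, and differed by a median of 0.45 and 1.21 on the log2 scale. For Pygm the sign was shared on 11 of 18 untreated and 8 of 16 treated arrays, and for Aldoa on 8 of 18 and 8 of 16. The Pygm probes differed by at most 3.17 and the Aldoa probes by at most 2.01 in the untreated table. In treated hindlimb, where Pygm had a lower mean in mdx, each probe had it lower: the first at -0.26 against 0.18 and the second at -0.43 against 0.35.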
